A study of Mus musculus with 23 samples.

Results

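The genes described here encode the proteins of the cytosolic ribosome. They were chosen by symbol, as the rows named Rpl or Rps followed by a number (with a, x or l allowed after it), Rplp0, Rplp1, Rplp2 and Rpsa, and they were kept where the mean normalized count was at least 10 in both deposited tables. Of 83 such symbols, 78 were kept, namely 43 of the large 60S subunit, 32 of the small 40S subunit and the 3 stalk proteins P0, P1 and P2. The 32 include Rps4l, which GENCODE annotates as a transcribed processed pseudogene. Rpl32l and Rpl6l, which were not kept, are annotated as processed pseudogenes. Whole tables hold 35455 and 35454 rows, of which 17558 and 17424 reached the same mean. The rule uses names and mean level only, so that none of the differences described here took part in it. Rows with the same names and the ending -ps were set beside the genes. There are 290, of which GENCODE annotates 278 as processed and 6 as transcribed processed pseudogenes and 6 as protein coding, and 63 and 47 of them reached a mean of at least 10.

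The values come from 23 RNA sequencing libraries of lung tumor cells sorted by FACS for tdTomato, each from 1 mouse. All mice were age-matched adults on a mixed background and carried Braf CAT/+, an allele that expresses BRAFV600E together with tdTomato after CRE recombination. CRE came from an adenovirus whose Sftpc promoter restricts it to surfactant-producing alveolar type 2 (AT2) cells. The first table holds 6 libraries of BRAFV600E tumors (genotype CAT/+, called BRAF below), 1 at 2 weeks, 3 at 6 weeks and 2 at 12 weeks after induction. It also holds 8 libraries of BRAFV600E/PI3KαH1047R tumors (CAT/+; HR/+, the Pik3ca lat-H1047R allele, called BRAF/PI3K), 2, 4 and 2 at the same weeks. The second table holds tumors at 12 weeks with 1 or both Ppargc1a alleles floxed, 5 libraries of BRAFV600E/PGC1αHet (CAT/+; PGC1a mutant/+, called PGC1a Het) and 4 of BRAFV600E/PGC1αNull (CAT/+; PGC1a mutant/mutant, called PGC1a Null). Mice harvested at 12 weeks received a lower dose of virus than those at 2 and 6 weeks, so that week and dose cannot be told apart. There are no tumors without BRAFV600E in either table, and no BRAF library with both Ppargc1a alleles intact in the second.

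Total normalized counts were 16433820 to 20287296 per library in the first table and 7115753 to 9159567 in the second. The depth in reads is unknown. The 78 genes took 0.299% to 0.625% of a library in the first table and 0.801% to 1.53% in the second. As a check of the labels, the Y-linked gene Kdm5d had 234 to 508 normalized counts in 7 libraries labelled female and 2090 to 4677 in 5 labelled male in the first table. Both BRAF/PI3K libraries at 12 weeks went against their sex label, with 502 in replicate 1, labelled male, and 4728 in replicate 2, labelled female. The first comparison over all weeks is given with and without them, whereas at 12 weeks no BRAF/PI3K library remains without them. Ppargc1a, the deleted gene of the second table, had 75.8, 170, 155, 200 and 561 normalized counts in PGC1a Het replicates 1 to 5 and 72.7, 38.0, 51.6 and 124 in PGC1a Null replicates 1 to 4, so that the groups overlapped.

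A ribosome is assembled from rRNA and one copy each of most of these proteins, with several copies of P1 and P2 in the stalk that recruits translation factors. Their mRNAs begin with a terminal oligopyrimidine (TOP) tract, a C followed by further C and T letters, and translation of TOP mRNAs is raised by mTORC1, which lies downstream of PI3-kinase. Because control of these genes is largely translational, the mRNA amounts measured here need not follow ribosome output. Mammalian genomes also hold many processed pseudogenes of these short and abundant mRNAs, and a read from a shared stretch can be assigned to either.

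The windows around the transcript start of 7 genes to which the results return are shown first, 30 bases before to 20 bases after the start given by RefSeq on GRCm38.p6. Capitals mark a run of 8 or more C and T letters.
Rplp0, chr5:115559437-115559486, plus strand: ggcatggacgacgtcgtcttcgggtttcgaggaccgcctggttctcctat
Rpl10a, chr17:28328441-28328490, plus strand: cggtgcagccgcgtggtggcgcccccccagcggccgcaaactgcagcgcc
Rpl12, chr2:32961682-32961731, plus strand: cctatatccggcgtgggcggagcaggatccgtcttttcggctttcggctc
Rpl34, chr3:130730379-130730428, minus strand: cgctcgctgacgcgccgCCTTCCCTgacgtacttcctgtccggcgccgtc
Rps2, chr17:24720033-24720082, plus strand: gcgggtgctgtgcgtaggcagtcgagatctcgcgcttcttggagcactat
Rps6, chr4:86857348-86857397, minus strand: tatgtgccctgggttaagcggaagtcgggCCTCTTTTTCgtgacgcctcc
Rps18, chr17:33955646-33955695, minus strand: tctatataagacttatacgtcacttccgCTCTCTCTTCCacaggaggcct
Rps6, Rps18 and Rpl34 hold such a run in the window, and the other 4 do not. Promoters of 57 of the 78 genes could be matched by symbol. Of these, 30 (52.6%) held a run of 8 or more C and T letters on the sense strand within 30 bases on either side of the start, against 22.8% of 27025 promoters. The letters CCGGAAG, which factors of the ETS family recognise, stood on either strand in 23 of 57 (40.4%) from 250 bases before to 50 after the start, against 9.12% of all, and AAGATGG, the core of the YY1 motif, in 8 (14.04%) against 6.48%. CCGGAAG can overlap AAGATGG by its last letters and, on the other strand, a run of C and T, and such matches describe letters only.

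Levels were compared between genes per kilobase of the median protein-coding transcript. In the first table the median gene had 978 normalized counts per kb. Rpl10, a 60S protein at the subunit interface, stood highest with 10376 ± 3065 (SD, n = 14), and Rpl4, Rps24 and Rps4x were among the next with 6207, 4606 and 3419. The SDs of these 4 genes ran from 581 to 3065 per kb, and in this order the mean ± SD range of each overlapped that of the next. At the other end stood Rpl35 with 79.5, Rps20 with 117 and Rpl12 with 131 normalized counts per kb. Each of these 3 genes has 1 protein-coding transcript, of 946, 3706 and 1242 bases in this order, against a median length of 696.5. A low value per kb of such a gene, of Rps20 above all, need not mean a low count. In the second table Rpl10 again led with 5832 ± 1236 (SD, n = 9), with Rps4x at 3923 and Rpl4 at 3903 among the genes behind it, and Rpl12 was lowest with 136. For a single gene the libraries differed far less than the genes did, with a median coefficient of variation of 26.0% over the first table and 24.9% over the second. Reads that were assigned to a copy are missing from these levels. Rps24 and the low genes were named after their values were seen.

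The remaining 5 symbols stayed below the mean of 10. Rpl39l, the testis paralog of Rpl39, was listed at 0 in all 23 libraries, while Rpl39 itself had 546 to 1304 normalized counts in the first table. Rpl10l, an autosomal retrocopy paralog of the X-linked Rpl10, reached at most 4.8, and Rpl3l, the muscle paralog of Rpl3, at most 23.6. Rpl32l and Rpl6l reached 16.9 and 34.5 and were listed at 0 in several libraries. Rps4l, a retrocopy paralog of the X-linked Rps4x, passed with a mean of 11.1 in the first table, where it was listed at 0 in 5 of 14 libraries and reached 44.7, against 2427 to 4302 for Rps4x.

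The genes moved together from library to library. The ribosomal protein score, the mean log2 (normalized count + 1) of the 78 genes, ran from 9.08 to 9.78 in the 6 BRAF libraries and from 8.81 to 9.47 in the 8 BRAF/PI3K libraries. Within BRAF, replicate 1 at 6 weeks was the highest library for 53 of the 78 genes and replicate 1 at 12 weeks the lowest for 37. Within BRAF/PI3K, replicate 2 at 2 weeks was lowest for 32. The same was stronger in the second table, where PGC1a Null replicate 2 was the highest of its group for 73 of 78 genes and PGC1a Het replicate 5 the lowest for 71. The scores of these 2 libraries were 10.16 and 9.09 on the log2 scale. The same mean over mitochondrial ribosomal protein genes was also highest within BRAF in replicate 1 at 6 weeks (7.54). It was highest in PGC1a Null replicate 2 (6.95) and lowest in PGC1a Het replicate 5 (6.48) of their groups. It was not lowest in BRAF replicate 1 at 12 weeks or BRAF/PI3K replicate 2 at 2 weeks. Whether these libraries stood apart over all rows was not tested.

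**Figure D1:**
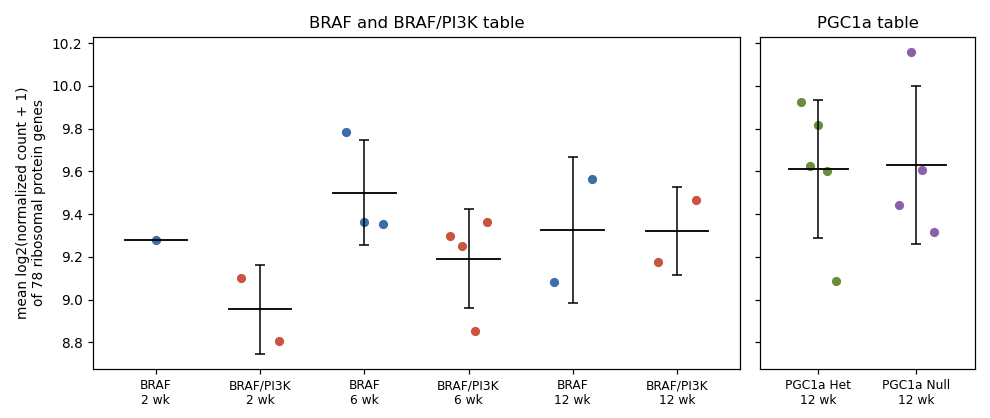
Mean log2 (normalized count + 1) of the 78 ribosomal protein genes in each library (points), by genotype and week, with the group mean (long bar) and SD (error bar, where a group has more than 1 library). The tables were normalized separately. The score runs from 8.81 to 9.78 in the first table and from 9.09 to 10.16 in the second, and the genotypes overlap in both.

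The first comparison asks what PI3KαH1047R adds to BRAFV600E. Ribosomal protein mRNAs were lower on average in BRAF/PI3K tumors, by a small amount that no single gene carried past the adjusted threshold. The score was 9.41 ± 0.24 (SD, n = 6) in BRAF and 9.16 ± 0.23 (SD, n = 8) in BRAF/PI3K tumors, a difference of -0.24 on the log2 scale, with 7 of 8 BRAF/PI3K libraries below the BRAF mean and the groups overlapping. Single genes were tested with limma on log2 (normalized count + 1), on which scale all fold changes here stand, and a gene passed the adjusted threshold where its p-value, adjusted by Benjamini-Hochberg over all rows of the table, was under 0.05. Of the 78 genes 0 passed, where 4 of 17558 rows did (0.0228%). At an unadjusted p-value under 0.05 limma placed 12 genes lower (15.4%) and 1 higher in BRAF/PI3K tumors, against 3.38% of all rows lower and 3.46% higher. The log2 fold change was below 0 for 70 of the 78 genes, against 48.2% of all rows, and its median was -0.27, against 0.02 for all rows. The groups overlapped for all 78 genes, where 0.125% of rows were lower and 0.0854% higher without overlap. Since the genes rise and fall together between libraries, the 78 values are not independent.

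Sex labels, markers of cell types and single libraries moved beside this difference. The labels give 5 of 6 BRAF libraries as female against 3 of 8 BRAF/PI3K libraries, and within BRAF/PI3K the score averaged 9.34 in the 3 labelled female and 9.06 in the 5 labelled male. Without both libraries at 12 weeks, whose labels Kdm5d contradicts, these were 9.28 in 2 and 9.03 in 4 libraries. Within BRAF the 5 labelled female averaged 9.42 and the 1 labelled male had 9.36. With sex as a factor the median of the 78 genes was -0.15 and 3 genes were lower at an unadjusted p-value under 0.05 (2.29% of all rows), a count near the background. Without both BRAF/PI3K libraries at 12 weeks the median was -0.32 with 17 genes lower (5.02% of rows), and -0.23 with 4 genes lower (2.71% of rows) when sex was a factor as well. Without BRAF replicate 1 at 6 weeks 7 genes were lower (2.53% of rows). Of 15 AT2 marker genes all 15 had a log2 fold change below 0 (median -0.90), and their summed normalized counts ran from 609045 to 1702758 in BRAF and from 92960 to 1236252 in BRAF/PI3K libraries. All 15 endothelial markers (median 0.89) and all 14 myeloid markers tested (median 0.89) were above 0, with sums of 17199 to 162808 against 28104 to 303620 for the endothelial and 2307 to 9288 against 4338 to 37696 for the myeloid genes, and none of these markers was listed at 0 throughout. Not all lists rose, since 6 of 6 erythroid (median -0.93) and 12 of 15 lymphocyte markers (median -0.23) were below 0. So were 5 of 10 fibroblast (median 0.06), 3 of 7 ciliated (median 0.03) and 0 of 10 AT1 markers (median 0.31). The part of all these markers in the result was not tested. In sorted bulk cells, fewer cells of a type and less RNA per cell cannot be told apart.

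Without both BRAF/PI3K libraries at 12 weeks the score of BRAF/PI3K tumors was 9.11 ± 0.24 (SD, n = 6), a difference of -0.29, and 72 of 78 genes were below 0 (48.6% of rows). The median was -0.23 over the stalk proteins, -0.32 over the large and -0.30 over the small subunit, and 0 genes passed the adjusted threshold. Of the genes described next, Rplp0 gave -0.77 (SE 0.24), Rpl12 -1.09 (SE 0.35), Rpl10a -0.78 (SE 0.27), Rpl10 -0.65 (SE 0.22), Rpsa -0.49 (SE 0.20) and Rps2 1.70 (SE 0.47). Rpl5 moved from -0.09 to -0.32, and Rps18 from 0.40 to -0.015. Rps18 and Rps16, the latter named after its value was seen, were the 2 genes whose sign differed. The myeloid median was 0.36 and the AT2 and endothelial medians -1.20 and 1.17. Of 62 -ps rows 44 were below 0 (median -0.41), with 15 lower and 1 higher at an unadjusted p-value under 0.05, and their share of the counts was 23.7% ± 1.49 (SD, n = 6).

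Among the stalk proteins, Rplp0, the anchor on which the P1 and P2 dimers sit, differed the most. Its normalized counts were 604 at 2 weeks, 1499, 962 and 993 at 6 weeks and 993 and 1048 at 12 weeks in BRAF tumors, against 728 and 370, then 465.8, 666, 651 and 657, then 677 and 787 in BRAF/PI3K tumors. Only the BRAF library at 2 weeks lay within the BRAF/PI3K range, and the log2 fold change was -0.69 (SE 0.22), with a limma adjusted p of 0.50. Rplp1 and Rplp2 gave -0.28 (SE 0.22) and -0.17 (SE 0.20).

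In the large subunit the median log2 fold change was -0.28, with 40 of 43 genes below 0 and 7 lower at an unadjusted p-value under 0.05, namely Rpl10, Rpl10a, Rpl12, Rpl24, Rpl34, Rpl36 and Rpl36a. Rpl12, which forms the stalk base with Rplp0, had the lowest value, -1.01 (SE 0.31, adjusted p = 0.50). Its normalized counts ran from 117 to 399 with a median of 200 in BRAF and from 59.5 to 167 with a median of 98.2 in BRAF/PI3K tumors, with 2 BRAF libraries inside the BRAF/PI3K range. Rpl10a, close to the exit site for tRNA, gave -0.68 (SE 0.24), Rpl34 gave -0.63 (SE 0.25) and Rpl10 gave -0.58 (SE 0.20). For Rpl10 the 6 BRAF libraries had 7216 to 11420 normalized counts (median 9139) and the 8 BRAF/PI3K libraries 3310 to 8049 (median 6523). Rpl5 and Rpl11, which with 5S rRNA bind MDM2 and so link the ribosome to p53, gave -0.09 (SE 0.26) and -0.17 (SE 0.16). The highly expressed Rpl4 and Rpl7a gave -0.21 and -0.40, Rpl3 and Rpl39 gave -0.28 and -0.30, and Rpl35a, one of 3 large subunit genes above 0, gave 0.18, and -0.13 when summed with its -ps rows.

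In the small subunit the median was -0.24, with 27 of 32 genes below 0, and at an unadjusted p-value under 0.05 4 genes, Rpsa and Rps13 among them, were lower and Rps2 was higher, though the value of Rps2 was below 0 when it was summed with its copies (-0.50 with its -ps rows). Rpsa, also known as the laminin receptor, had 1230 to 2140 normalized counts in BRAF and 837 to 1441 in BRAF/PI3K tumors, a log2 fold change of -0.49 (SE 0.17, limma adjusted p = 0.56). Rps6, the substrate of the S6 kinases downstream of mTORC1, had 1317 to 1867 (median 1436) and 983 to 1752 (median 1342), and the log2 fold change of -0.16 (SE 0.16) was close in size to its error. Rps19, the gene most often mutated in Diamond-Blackfan anemia, gave -0.17 (SE 0.19), and Rps27 and its p53-responsive paralog Rps27l gave -0.08 (SE 0.18) and -0.34 (SE 0.30). Rps4x gave -0.15 (SE 0.15). On the other side stood Rps2 with 1.79 (SE 0.42), Rps4l with 0.77 (SE 1.10), Rps28 with 0.54 (SE 0.35) and Rps18 with 0.40 (SE 0.47), of which Rps4l, Rps28 and Rps18 did not differ from 0 beyond their errors at an unadjusted p-value of 0.05. Without BRAF/PI3K replicate 1 at 2 weeks the value of Rps28 was 0.29.

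**Figure D2:**
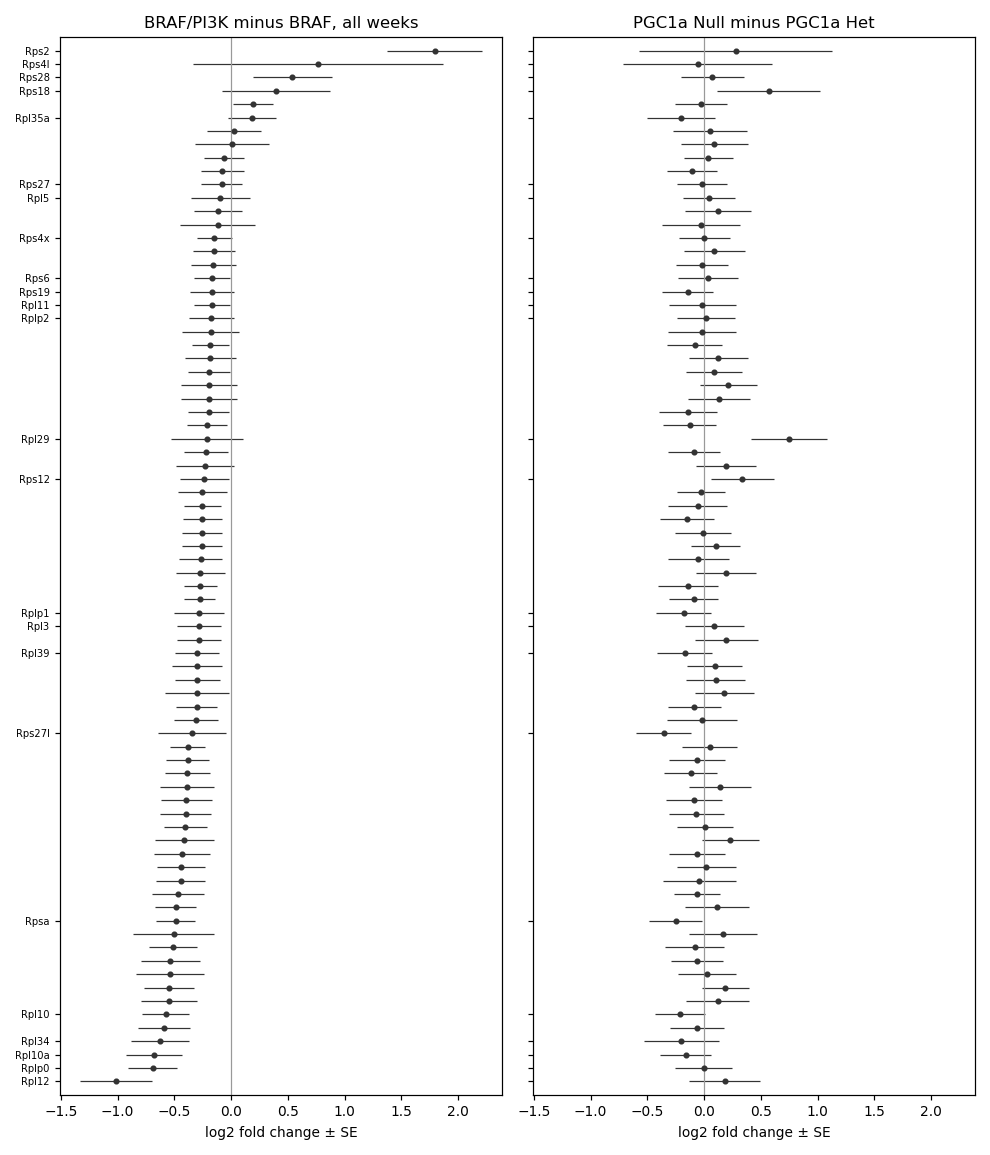
Log2 fold change of each of the 78 genes on log2 (normalized count + 1), with its SE from limma (bars), for BRAF/PI3K minus BRAF over all weeks (left) and PGC1a Null minus PGC1a Het (right), in the order of the left panel, with names for the genes of extreme change and the paralogs and regulators. On the left 70 of 78 points lie below 0, with Rps2 far above the rest at 1.79 (-0.50 when summed with its -ps rows), and on the right the points lie on both sides of 0, with 41 below it.

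Other genes of ribosome supply were taken from lists chosen with these data known, and their counts stand beside shares over all rows of 48.2% below 0, 3.38% lower and 3.46% higher. Among 20 translation factors of the TOP class, such as the elongation factors, all 20 were below 0 (median -0.26) and 5 were lower at an unadjusted p-value under 0.05. Among 40 genes of ribosome biogenesis, 30 were below 0 (median -0.20) and 3 were lower. Of 25 genes of mTORC1 and MYC control of ribosome supply, 15 were below 0 (median -0.07) and 1 was lower. Of 78 mitochondrial ribosomal protein genes, whose products build a separate ribosome, 49 were below 0 (median -0.08), with 1 lower and 1 higher. The 7 genes of the cytosolic ribosome that the naming rule missed had a median of -0.19, all 7 below 0 and 1 lower. None of these genes passed the adjusted threshold, and no list was tested against another. Without both BRAF/PI3K libraries at 12 weeks the medians, in the order given, were -0.32, -0.21, 0.01, -0.07 and -0.32.

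By week the genes were lower on average in BRAF/PI3K tumors at 2 and 6 weeks and near equal at 12 weeks, without a detectable change of the difference from 6 to 12 weeks. The score differed by -0.33 at 2 weeks, -0.31 at 6 weeks and -0.004 at 12 weeks. When limma was given one mean per genotype at each week, the median log2 fold change was -0.37 at 2 weeks, with 12 genes lower and 2 higher at an unadjusted p-value under 0.05 where 6.57% and 6.93% of all rows were, and 61 below 0 where 49.3% of rows were. This rests on 1 BRAF library, whose spread is taken to be that of the other groups, and the median was -0.62 without BRAF/PI3K replicate 1 at 2 weeks and -0.25 without replicate 2. At 2 weeks the BRAF library is labelled female and both BRAF/PI3K libraries male, so that sex and genotype cannot be told apart there. With a sex term taken from the other weeks the median was -0.20. That term draws in part on the labels at 12 weeks that Kdm5d contradicts. At 6 weeks the median was -0.33, with 73 of 78 genes below 0 (49.5% of rows), 7 lower and 1 higher, against 1.99% and 2.24% of rows. It was -0.21 without BRAF replicate 1 and -0.22 without BRAF/PI3K replicate 3 of that week. Rplp0 was among the 7 with -0.90 (SE 0.29), and Rps2 was the gene higher, with 2.50 by its own row and -0.52 when summed with its -ps rows. At 12 weeks it was -0.04, with 45 genes below 0 (49.5% of rows) and 0 lower or higher, against 1.58% and 2.18%, and it ran from -0.23 to 0.17 as each library was left out. Of the 78 genes 0 passed the adjusted threshold at any week, where 0.0171%, 0.0228% and 0.0114% of rows did. The test of the difference itself, the genotype effect at 12 weeks minus that at 6 weeks, had a median of 0.32 with 13 of 78 genes below 0 (49.2% of rows). It was 0.12 without BRAF replicate 1 and 0.47 without BRAF replicate 2 at 12 weeks, 0.17 without BRAF/PI3K replicate 2 at 12 weeks, and 0.15 and 0.19 without BRAF replicate 1 or BRAF/PI3K replicate 3 at 6 weeks. By limma 0 of 78 genes passed the adjusted threshold, where 0.0% of rows did, and 0 were higher or lower at an unadjusted p-value under 0.05, where 1.54% and 1.33% of rows were. Both BRAF/PI3K libraries at 12 weeks are those that went against their sex labels.

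At 2 weeks the lowest value belonged to Rps26, a 40S protein at the mRNA exit channel, with -1.48 (SE 0.52), a gene named after its value was seen. Endothelial and AT2 marker genes also moved at this week. Of the endothelial markers 15 of 15 were above 0 (median 3.16). Of the AT2 markers, which mark the cell of origin, 14 of 15 were below 0 (median -2.27). At 6 weeks the endothelial and AT2 medians were 0.21 and -0.41, while the median of the 78 genes was close to that at 2 weeks. Their part in the result was not tested. Over both genotypes, levels at 6 weeks stood above those at 2 weeks for 63 of the 78 genes (median 0.22, and 0.14 without BRAF/PI3K replicate 2 at 2 weeks), with 15 below 0 (48.1% of rows), 7 higher and 0 lower at an unadjusted p-value under 0.05 where 5.89% and 4.47% of rows were, and 0 past the adjusted threshold where 0.0399% were. From 6 to 12 weeks the median was -0.04 (-0.13 to 0.06 as each library was left out), with 43 genes below 0 (50.5% of rows), 3 higher and 2 lower (2.59% and 3.40% of rows) and 0 past the adjusted threshold (0.0114% of rows).

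The second comparison asks what loss of PGC1α does in tumors driven by BRAFV600E. Ribosomal protein mRNAs were not detectably different, the groups overlapped for all 78 genes (0.459% of rows were lower and 0.941% higher without overlap), and libraries of the same genotype differed more than the genotypes did. The score was 9.61 ± 0.32 (SD, n = 5) in PGC1a Het and 9.63 ± 0.37 (SD, n = 4) in PGC1a Null tumors. By limma, 0 of 78 genes passed the adjusted threshold, where 0 of 17424 rows did (0.0%). At an unadjusted p-value under 0.05, 1 gene was higher and 0 lower, against 2.66% and 1.17% of rows. The median log2 fold change was -0.01, with 41 of 78 genes below 0 (48.9% of rows), and it ran from -0.20 to 0.11 as each library was left out in turn, with the lowest value without PGC1a Null replicate 2. Rpl29, a 60S protein that was the gene higher, had 866, 340, 744, 630 and 310 normalized counts in PGC1a Het and 1056, 984, 1061 and 581 in PGC1a Null libraries, in replicate order. Its ranges overlapped, and the log2 fold change was 0.75 (SE 0.33, adjusted p = 0.998). Summed with the rows past a sharing threshold of 10% of stretches of 50 bases, Rpl29 gave -0.09.

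Of the other genes, Rps18 gave 0.57 (SE 0.45), Rps12 0.34 (SE 0.28) and Rps2 0.28 (SE 0.85, and -0.18 when summed with its -ps rows), and at the lower end Rps27l gave -0.36 (SE 0.24), Rpsa -0.25 (SE 0.23), Rpl10 -0.21 (SE 0.22) and Rpl35a -0.21 (SE 0.30), which turned to 0.08 when summed with its -ps rows. As each library was left out, Rps2 ran from -0.29 to 1.02, Rps18 from 0.22 to 0.83 and Rps12 from 0.08 to 0.48. Rps6 and Rplp0, at 0.03 (SE 0.26) and -0.003 (SE 0.25), lay near 0. The translation factors of the TOP class, the biogenesis genes, the mTORC1 and MYC genes and the mitochondrial ribosomal genes had medians of -0.06, -0.02, 0.05 and -0.03. Markers of other cells moved in this table. All 14 endothelial markers tested were above 0 (median 2.12, 13 of them at an unadjusted p-value under 0.05). The summed counts of all 15 on the list, 741 to 1593 in PGC1a Het and 2432 to 3929 in PGC1a Null, did not overlap. Median sums also rose, with overlapping ranges, for myeloid (2526 to 6803), lymphocyte (814 to 1490), fibroblast (974 to 1712), erythroid (344 to 767) and ciliated markers (83.0 to 178). They were lower in PGC1a Null for AT2 (623041 to 611222) and AT1 markers (14281 to 13966). The part of all these markers in the ribosomal values was not tested.

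The -ps rows carried a large share of the counts assigned to the family. Summed over all 290 rows, they held 25.0% ± 0.59 (SD, n = 6) of the counts on genes plus -ps rows in BRAF and 23.7% ± 1.28 (SD, n = 8) in BRAF/PI3K tumors. All 8 BRAF/PI3K libraries were below the BRAF mean, with the lowest, 20.9%, in replicate 1 at 2 weeks, and the ranges of 24.4% to 26.0% and 20.9% to 25.0% overlapped. In the second table the share was 21.0% ± 1.88 (SD, n = 5) in PGC1a Het and 19.7% ± 0.90 (SD, n = 4) in PGC1a Null. With every other row past the sharing threshold of 10% added, the share on copies was 37.5% and 36.4% in the first table and 32.8% and 31.5% in the second. Other rows that share less were left out.

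**Figure D3:**
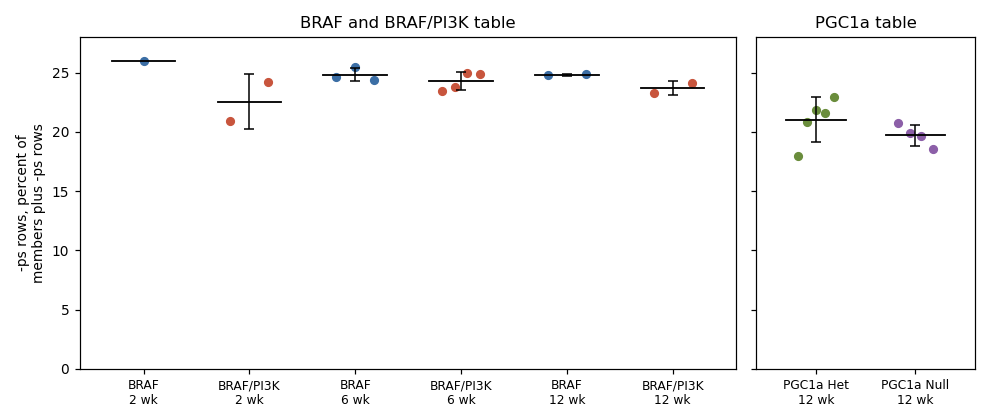
Share of normalized counts on the 290 -ps rows, in percent of the counts on the ribosomal protein genes plus -ps rows, in each library (points), with the group mean (long bar) and SD (error bar). The libraries of the first table lie between 20.9% and 26.0% and those of the second between 17.9% and 22.9%.

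Among the -ps rows, too, values below 0 were more frequent in the first comparison. In the first comparison 45 of 63 tested rows were below 0 (48.2% of all rows) with a median of -0.42, 0 passed the adjusted threshold, and 14 were lower and 1 higher at an unadjusted p-value under 0.05 (3.38% and 3.46% of all rows). The 14 include 4 rows of Rpl35a (Rpl35a-ps2, -ps3, -ps4 and -ps6) with identical values, so that they are not 14 measurements. With sex as a factor 8 rows were lower (2.29% of all rows). By week the medians were -0.97, -0.33 and -0.19, and in the second comparison the median was -0.03 with 0 of 47 rows past the adjusted threshold and, at an unadjusted p-value under 0.05, 2 lower and 0 higher (1.17% and 2.66% of all rows). Rpl30-ps8 had the lowest value of the first comparison, -2.57 (SE 0.72), and Rpl23a-ps2 the highest, 1.71 (SE 0.69). In the second, Rps12-ps3, a row annotated as protein coding, was the one whose groups did not overlap, with 161, 126, 118, 107 and 118 normalized counts in PGC1a Het and 16.8, 2.5, 79.9 and 37.8 in PGC1a Null libraries, and a limma adjusted p of 0.637. Of all 17424 rows 80 (0.459%) were lower without overlap.

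How far the genes and their copies can be told apart was read from GENCODE vM21 transcripts (GRCm38). Of the 77 genes with transcripts there, a median of 35.1% of all stretches of 50 bases occurred also in another gene, from 0% to 85.5%, and for 20 genes it was over 50%. Several of the -ps rows with the highest counts were exact copies. The 645 coding bases of Rpl10 (X chromosome) were identical to Rpl10-ps1 (chr2:105554201-105554845), as were the 750 of Rps6 to Rps6-ps4 (chr2:75191073-75191822) and the 654 of Rpl10a to Rpl10a-ps1 (chr1:64993951-64994604). The first 60 coding bases of the first pair show what a read has to go by.
Rpl10: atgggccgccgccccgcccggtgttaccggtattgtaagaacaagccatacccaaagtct
Rpl10-ps1: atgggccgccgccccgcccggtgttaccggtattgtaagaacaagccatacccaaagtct
There are no capitals since no base differs, and reads inside the coding sequence cannot be assigned to one or the other, whereas reads in the UTRs can. Rps6-ps4 was listed with 2052 to 4471 normalized counts and Rps6 itself with 983 to 1867, and Rpl10-ps1 with 2936 to 6571 beside Rpl10. Rpl3-ps1 differed from Rpl3 at 2 of 1209 aligned bases and was listed with 884 to 4198, against 820 to 1943 for Rpl3.

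Because of this, each gene was also summed with its -ps rows before the fit. The median of the 78 genes in the first comparison was then -0.28, with 72 below 0 (48.1% of all rows), 16 lower and 0 higher at an unadjusted p-value under 0.05 (3.33% and 3.46% of rows), and 0 past the adjusted threshold (0.0229% of rows). Summed with every row past the sharing threshold of 10%, a choice made after seeing the data, 76 were below 0 (48.0% of rows), 17 lower and 0 higher (3.29% and 3.45% of rows). Rpl12 moved from -1.01 to -0.57 in that sum and Rplp0 from -0.69 to -0.51, while Rpl10a, at -0.63, stayed near its value. Rpl34 moved from -0.63 to -0.29 in either sum, and Rps18 from 0.40 to 0.12 with its -ps rows and to -0.08 with all rows past the sharing threshold.

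Rps2 was the gene on which its copies bore the most among those named. Its row and that of Rps2-ps10, a transcribed processed pseudogene with which 673 of its 1329 stretches of 50 bases (50.6%) were shared, went in opposite directions (Rps2-ps10 was taken up here after its values were seen). Rps2, a 40S protein at the mRNA entry channel on chr17:24718116-24721929, had 153 normalized counts at 2 weeks, 77.2, 76.4 and 67.5 at 6 weeks and 97.2 and 666 at 12 weeks in BRAF tumors. In BRAF/PI3K tumors it had 400 and 379, then 414, 597, 382 and 336, then 506 and 561. BRAF replicate 2 at 12 weeks lay above all BRAF/PI3K libraries, and the other 5 BRAF libraries below all of them. The log2 fold change of 1.79 (SE 0.42) had a limma adjusted p of 0.225, and without that library it was 2.27 with an adjusted p of 0.00062, the one setting over all weeks in which a ribosomal protein gene passed the threshold. At 6 weeks it was 2.50 (adjusted p = 0.377), and 0.0090 and 0.0089 without BRAF replicate 1 or 2 at 12 weeks.

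Rps2-ps10 had 1069, then 2267, 1310 and 1324, then 1184 and 1025 normalized counts in BRAF tumors and 630 and 299, then 650, 775, 644 and 771, then 430 and 560 in BRAF/PI3K tumors. Its groups did not overlap, as in 0.125% of all rows in this direction, and the log2 fold change was -1.20 (SE 0.24, limma adjusted p = 0.137). Summed with its 10 -ps rows, Rps2 had 1686 ± 414 normalized counts (SD, n = 6) in BRAF and 1182 ± 179 (SD, n = 8) in BRAF/PI3K tumors, a log2 fold change of -0.50 with an adjusted p of 0.530. The sign of the Rps2 difference thus turned when its copies were counted with it. Libraries of 1 genotype also differed in which row was higher. In PGC1a Het replicates 1 to 5, Rps2 had 1860, 932, 952, 165 and 102 normalized counts and Rps2-ps10 had 286, 1559, 1646, 2638 and 2104. In PGC1a Null replicates 1 to 4, Rps2 had 125, 1172, 783 and 1068 and Rps2-ps10 had 2232, 2061, 1516 and 148. The percentage of both rows that fell on Rps2 ran from 3.29% to 55.9% in the first table and from 4.61% to 87.8% in the second.

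Rps18, a 40S protein of the head, showed another such case. A pair of near-identical rows accompany it, Rps18-ps3 on chr8:107262793-107263248 and Gm10260 on chr13:97760072-97760632, annotated as a processed pseudogene and as protein coding. The coding sequence of Rps18 (chr17:33951999-33956001, minus strand) is set above those of both rows from coding base 170 on, where all differences lie, with the bases that differ from Rps18 in capitals.
Rps18: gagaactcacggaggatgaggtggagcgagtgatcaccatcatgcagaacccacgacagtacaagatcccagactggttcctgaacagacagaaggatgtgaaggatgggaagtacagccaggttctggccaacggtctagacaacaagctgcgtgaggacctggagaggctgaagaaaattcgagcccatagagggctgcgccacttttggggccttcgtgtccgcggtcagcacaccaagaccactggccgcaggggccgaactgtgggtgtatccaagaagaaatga
Rps18-ps3: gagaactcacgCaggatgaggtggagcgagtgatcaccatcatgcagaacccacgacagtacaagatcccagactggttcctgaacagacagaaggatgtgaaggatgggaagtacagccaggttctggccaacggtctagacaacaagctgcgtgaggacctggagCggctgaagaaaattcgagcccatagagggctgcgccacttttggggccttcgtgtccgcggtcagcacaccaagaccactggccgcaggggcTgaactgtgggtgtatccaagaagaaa
Gm10260: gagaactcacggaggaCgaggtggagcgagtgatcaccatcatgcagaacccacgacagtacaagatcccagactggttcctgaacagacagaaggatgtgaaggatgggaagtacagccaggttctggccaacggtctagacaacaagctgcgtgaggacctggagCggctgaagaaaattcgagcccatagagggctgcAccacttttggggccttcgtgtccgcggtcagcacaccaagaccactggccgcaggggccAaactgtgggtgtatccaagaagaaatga
Counted from 1 at the A of the start codon, Rps18-ps3 differed from Rps18 by G181C, A337C and C430T and Gm10260 by T186C, A337C, G371A and G431A, so that stretches of up to 180 and 185 bases were identical.

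Rps18-ps3 was the one -ps row past the adjusted threshold. At 12 weeks it had 92.6 and 97.7 normalized counts in the BRAF libraries and was listed at 0 in both BRAF/PI3K libraries (limma adjusted p = 0.00118, where 0.0114% of rows passed). Gm10260 was likewise at 112 and 125 against 0 and 0. In the same 2 BRAF/PI3K libraries the Rps18 row had its highest values, 980 and 1059, against 189 and 744 in the BRAF libraries at 12 weeks. At 2 and 6 weeks Rps18-ps3 was listed with 45.1 to 203 in all 10 libraries and Rps18 with 164 to 706. These 2 libraries are also those that went against their sex labels, and without them no BRAF/PI3K library at 12 weeks remains. Rps18-ps3 was lower at 12 than at 6 weeks as well (limma adjusted p = 0.00655), and this was no longer past the threshold when any 1 of the 4 libraries at 12 weeks was left out. In the second table PGC1a Null replicate 4 stood alone in the same way, with 18.8 for Rps18-ps3 and 8.1 for Gm10260 against 133 to 268 and 89.9 to 237 in the other 8 libraries. This was also the library with the lowest Rps2-ps10, at 148.

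**Figure D4:**
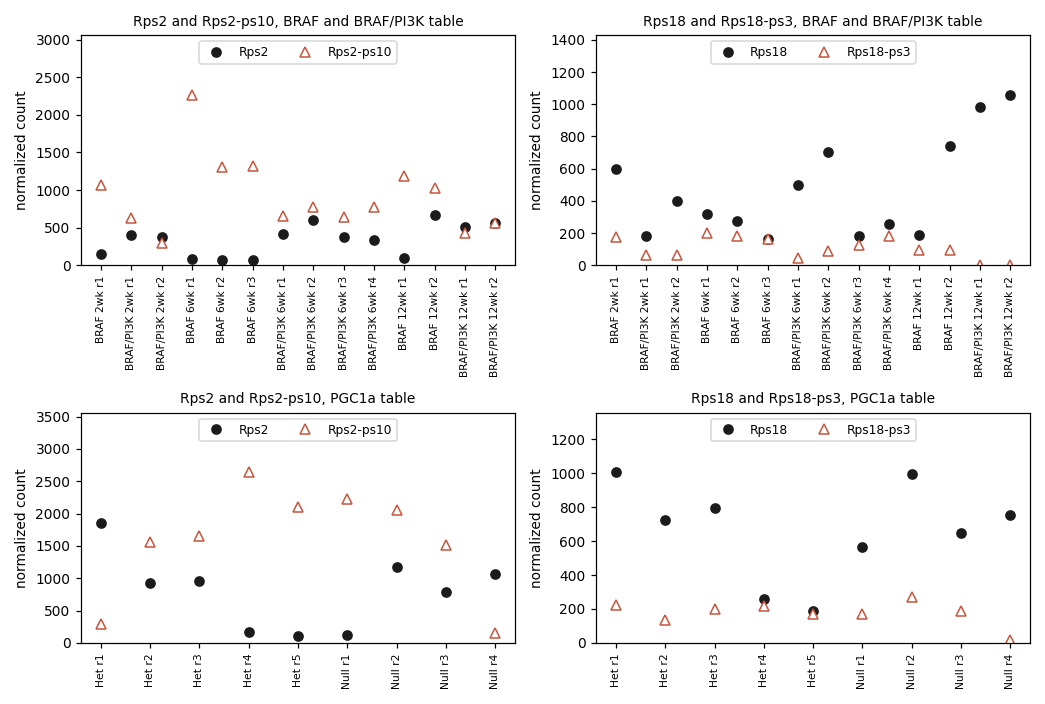
Normalized counts of Rps2 and Rps2-ps10 (left) and of Rps18 and Rps18-ps3 (right) in each library of the first (top) and second table (bottom), genes as filled circles and -ps rows as open triangles, with r for replicate. Which of Rps2 and Rps2-ps10 is higher differs between libraries, and Rps18-ps3 is at 0 in both BRAF/PI3K libraries at 12 weeks.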

How the data were processed

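Normalized counts of 23 RNA sequencing libraries were used in 2 tables, normalized separately, and no test was run across them. These signal values are the authors' Salmon estimates after DESeq2 normalization. The study ran both tools with default parameters on Galaxy, and their versions are not given in the sources used here. The authors' comparison tables (base mean, log2 fold change, standard error, Wald statistic and p-values) were not used. Depth in reads is unknown and the values are not whole numbers, so that count models were not run and precision is given by the spread between mice.

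Each replicate is 1 mouse. For rows with a mean of at least 10, limma 3.58.1 in R 4.3.3 was run with a trend on log2 values after adding 1, once over all weeks without a week term and once with genotype by week means. Tests were two-sided, and p-values were adjusted by Benjamini-Hochberg over all rows. Tested on simulated data, limma found 144 (first table) and 126 (second table) of 200 genes shifted by 2 log2 units, beside 4 and 8 false ones. Transcripts and positions came from GENCODE vM21 (GRCm38), and promoters from RefSeq (GRCm38.p6). No protein sequences were used. The alternatives were a pseudocount of 4, a mean over 40, no filter, quantile normalization, equal library totals, no trend, sex or week as a factor, a replicate block, sums with copies, and leaving out libraries.

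By rule, the genes named are those with an adjusted p-value under 0.05, the genes (4 at either end) and -ps rows (3 at either end) of extreme log2 fold change in each main comparison, the 5 genes and 5 -ps rows of highest mean, a fixed set of paralogs and regulators, and Rps18-ps3 and Gm10260. Some genes that the rule covers are not reported here, and others, such as Rpl24, Rpl36, Rpl36a and Rps13, were named for an unadjusted p-value after their values were seen. The genes, lists and this rule were chosen with earlier results of these data known.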

Additional observations from a re-analysis of the deposited data

Results flagged for a closer look

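Among 116 groups of 4 to 8 libraries tested for a library far from the rest (Dixon's test), 7 had one (6.03%), where chance gives about 1 in 20. BRAF replicate 1 at 6 weeks, the library with the highest ribosomal protein score, stood apart with 588 normalized counts of Rpl35a (others 296 to 374) and 765 of Rplp2 (others 416 to 505). BRAF replicate 2 at 12 weeks had 666 of Rps2 (others 67.5 to 153). BRAF/PI3K replicate 1 at 2 weeks had 592 of Rps28 (others 107 to 225) and the lowest share of family counts on -ps rows, 20.9% (others 23.3% to 25.0%). PGC1a Null replicate 2 had 1303 of Rpl11 (others 616 to 652), and PGC1a Null replicate 4 had 581 of Rpl29 (others 984 to 1061).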

How the results depend on the processing

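Over 14 alternatives other than leaving out single libraries, the median log2 fold change of the 78 genes stayed below 0 in the first comparison, from -0.32 to -0.15, and 0 genes passed the adjusted threshold. As each library was left out it ran from -0.32 to -0.21, 0 to 1 genes passed (Rps2, without BRAF replicate 2 at 12 weeks), and 7 to 18 genes and 12 to 18 -ps rows were lower at an unadjusted p-value under 0.05. With sex as a factor 3 genes were lower, and 4 without both BRAF/PI3K libraries at 12 weeks, a setting added after seeing the data. For -ps rows, 9 were lower with a mean over 40, and 8 with sex as a factor, with or without those libraries. With no filter, when rows near 0 enter, the median of -ps rows was -0.061 over all weeks, 0.0 at 2 weeks and -0.028 at 6 weeks, 2 of them passed the adjusted threshold at 2 weeks, and 1 did from 2 to 6 weeks. With single libraries left out, the median of the genes at 2 weeks ran from -0.62 to -0.25 and 0 to 1 genes passed at 6 weeks (Rps2). The median of the -ps rows at 12 weeks then ran from -0.46 to -0.10, and 0 to 1 of them passed at 2 weeks, from 2 to 6 weeks, from 6 to 12 weeks and in the test of 12 against 6 weeks. That last test gave 1 -ps row (Rps18-ps3) with quantile normalization and 1 without the trend. From 6 to 12 weeks 0 passed with a pseudocount of 4. The cause of these changes was not tested.

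Replicate numbers were not found to pair the libraries, since deviations of same-numbered libraries correlated by -0.28, -0.03 and -0.01 at 6 weeks. With a replicate block 10 genes were lower over all weeks, with a median of -0.25, and 0 -ps rows passed at 12 weeks (Rps18-ps3, adjusted p = 0.334). At 12 weeks the correlation was -0.15, and with crossed numbers, added after seeing the data, 7 genes were lower over all weeks and 0 -ps rows passed at 12 weeks. Rps2 in the first comparison (1.79) and Rpl29 in the second (0.75), each past the unadjusted threshold, had values below 0 when summed with the rows past the sharing threshold of 10% (-0.43 and -0.09). Depth in reads is unknown, so that no limit can be set for genes listed at 0.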
